A study of Mus musculus with 6 samples.

Results

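The receptors for serotonin, noradrenaline, dopamine, histamine and acetylcholine were examined in hippocampal tissue of mice that lack IκBα in the brain. Members were the probe sets whose only gene symbol begins with that of a serotonin (Htr1 to Htr7), α- or β-adrenergic, dopamine, histamine or muscarinic receptor, or of an α, β, δ or γ subunit of the nicotinic receptor. The rule found 70 probe sets of 40 genes, and each gene was represented by its probe set of highest mean over the 6 arrays, which left 40 of the 18193 genes tested. By family these were 13 serotonin, 2 adrenergic, 4 dopamine, 4 histamine and 3 muscarinic receptors and 14 nicotinic subunits. Receptors of these families without a probe set named here are not analysed here.

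The study profiled RNA of the hippocampus of 6 mice, 2 to 3 months old, on Affymetrix expression arrays. In 3 animals (IκBαfl/-;Nestin-Cre) the floxed allele was the target of Cre recombinase driven by Nestin, which acts in the neural lineage, and the other allele was null. The 3 littermate controls (IκBαfl/-) carried the same floxed and null alleles without Cre, so the null allele is common to both groups and Cre is what sets them apart. IκBα, encoded by Nfkbia, holds NF-κB transcription factors in the cytoplasm. Microglia and vessel cells lie outside the neural lineage in which Nestin-Cre acts. Each animal gave 1 array, and the labels call the arrays biological repeats numbered 1 to 3 in each group.

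Monoamines and acetylcholine reach the hippocampus mostly through axons of neurons that lie elsewhere: the raphe nuclei (serotonin), the locus coeruleus (noradrenaline), the midbrain and locus coeruleus (dopamine), the tuberomamillary nucleus (histamine) and the medial septum (acetylcholine). The receptors are made by hippocampal neurons, glia and vessels, or by the incoming axons, whose cell bodies and messenger RNA are not in the dissected tissue. Most are G protein-coupled receptors, which act through Gs (raising cyclic AMP), Gq (activating phospholipase C) or Gi (lowering cyclic AMP and opening potassium channels), while the nicotinic receptors and Htr3a and Htr3b form ion channels. Through them these transmitters set excitability, plasticity and state of arousal in the hippocampus.

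Values are RMA values on the log2 scale, a relative brightness of a probe set that depends on its probes as well as on the transcript, so levels were not ranked between genes. Array medians lay between 6.08 and 6.13, and correlations between arrays over all probe sets between 0.992 and 0.998. The targeted gene Nfkbia was at 8.95 ± 0.25 in deficient arrays against 10.35 ± 0.04 in controls (SD, n = 3), and missed the threshold (limma adjusted p = 0.057). Whether its probes lie in the deleted part is not known from the labels. As to the tissue label, 14 of 14 genes of hippocampal pyramidal and granule neurons and 13 of 13 interneuron genes lay above the array median. The same held for 6 of 6 neocortex, 8 of 8 astrocyte, 9 of 11 thalamus and habenula and 5 of 7 striatum genes. Of all genes tested 65.8% lay above it, so these counts do not set the hippocampus apart from neighbouring tissue. Control probe sets at the 3′ end exceeded those at the 5′ end by 0.56 to 0.73 in controls, by 0.65 and 0.61 in IκBα-deficient arrays 1 and 3, and by 2.02 in IκBα-deficient array 2, which stood apart. Markers of the choroid plexus, the epithelium next to the hippocampus, also differed between arrays and are given with the receptors they touch.

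Of the 40 receptor genes, 19 had a mean above the mean of the 6 array medians (6.11), or 47.5%, beside 65.8% of all genes tested. These were the serotonin receptors Htr1a, Htr1b, Htr2c, Htr3a, Htr4, Htr5a, Htr5b and Htr7, the α2-adrenergic receptor Adra2c, the dopamine receptor Drd1, the histamine receptors Hrh1, Hrh2 and Hrh3, the muscarinic receptor Chrm1 and the nicotinic subunits Chrna4, Chrna5, Chrna7, Chrnb2 and Chrnd. All of them but Hrh2 were above the median of their own array on 6 of 6 arrays, and Hrh2 on 5 of 6. The 21 others lay between 3.81 and 5.84, where RMA compresses differences, so a change in them could be hidden. Chrnd, a subunit of the muscle receptor, lay close to the median at 6.36, and the array median is no threshold of detection.

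**Figure D1:**
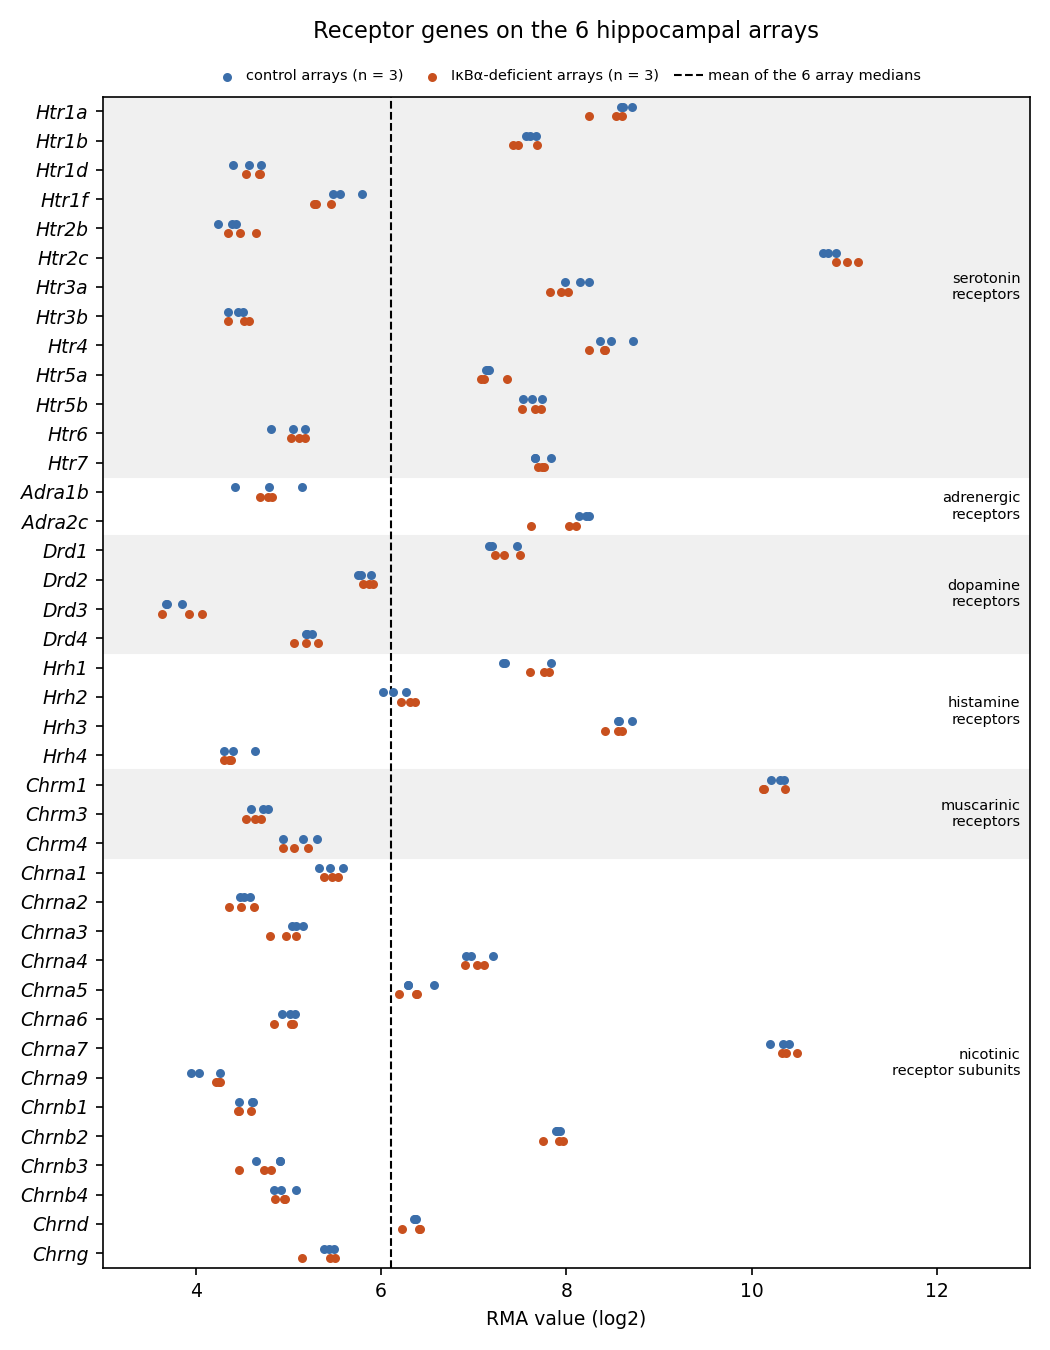
RMA values (log2, horizontal axis) of the 40 receptor genes on the 3 control and 3 IκBα-deficient arrays, 1 point per array, grouped by family, with the mean of the 6 array medians as a dashed line. The groups overlap for 37 genes, and 19 genes have a mean to the right of the line.

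No receptor gene passed the test between deficient and control arrays. With limma fitted to all 18193 genes and Benjamini-Hochberg adjustment over all of them, 0 of 40 receptors had an adjusted p under 0.05, the smallest adjusted p being 0.963, and over all genes the share called was also 0%. At an unadjusted limma p under 0.05 stood 2 receptors, Htr2c (higher) and Htr1f (lower), or 5% of the 40, beside 4.71% of all genes (3.33% higher and 1.39% lower). The 2 groups did not overlap for 3 receptors, Htr2c (higher), Htr1f and Adra2c (both lower), or 7.5%, beside 9.76% of all genes (5.94% higher and 3.82% lower). With quantile normalization repeated, the groups did not overlap for 1 receptor, Adra2c, beside 9.83% of all genes. The median difference (deficient minus control) was -0.02 over the receptors and 0.01 over all genes, with 16 receptors above 0 and 24 below.

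The differences were small, and the data set limits on the RMA readings. The largest in size was -0.28, for Adra2c, and the 95% intervals of the 40 differences, each taken on its own, reached no lower than -0.57 and no higher than 0.56 on the log2 scale. For the 21 receptors below the array median, where RMA compresses differences, the intervals do not limit the change of the transcript. The median SD within a group was 0.10 for controls and 0.11 for deficient arrays. In tissue RNA a difference in the number of cells of a type cannot be told apart from a difference in RNA per cell.

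**Figure D2:**
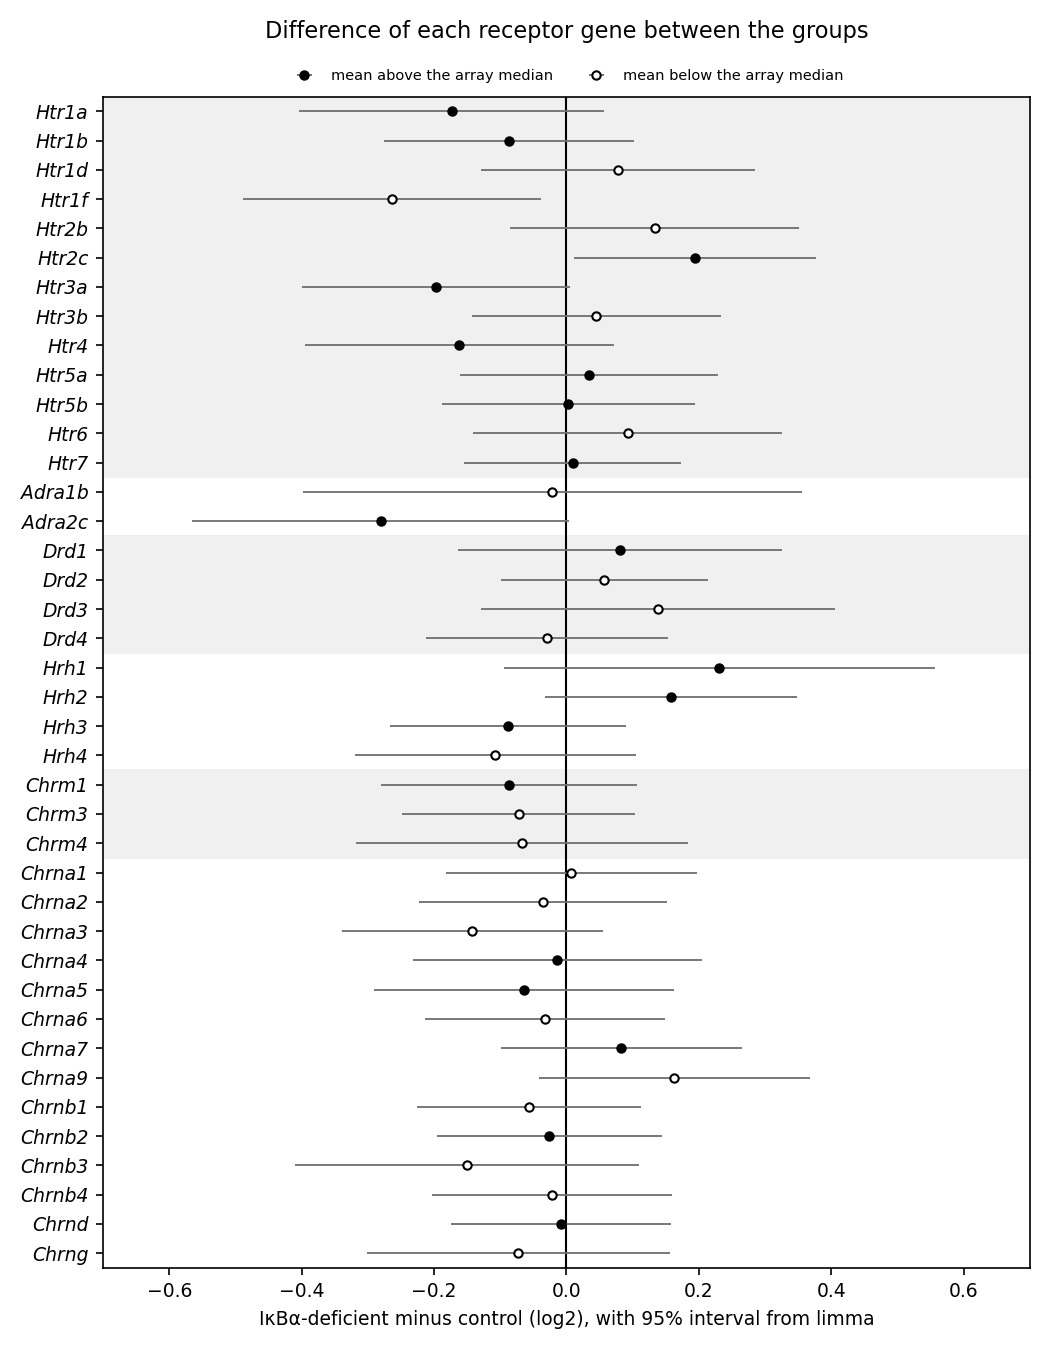
Difference between IκBα-deficient and control arrays (log2, horizontal axis) for each of the 40 receptor genes, with the 95% interval from limma, not adjusted for the number of genes. Filled points have a mean above the array median. The intervals of Htr2c (0.01 to 0.38) and Htr1f (-0.49 to -0.04) leave out 0, and the other 38 include it.

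Among the receptors that couple to Gq, the serotonin receptor Htr2c gave the clearest separation. This receptor is made by hippocampal neurons and in large amounts by choroid plexus epithelium, and its pre-mRNA is edited in ways these arrays do not read. Its probe set 1435513_at was at 10.91, 10.82 and 10.77 in control arrays 1 to 3 and at 11.14, 11.03 and 10.91 in deficient arrays 1 to 3. Every deficient array was above every control, but deficient array 3 only just exceeded control array 1, and with quantile normalization repeated the groups overlapped. The difference was 0.19 ± 0.08 (SE), or 1.14-fold higher, with an adjusted p of 0.963 (limma). A dim probe set of the same gene, 1450477_at, differed by -0.04 at values between 4.29 and 4.68.

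The order of Htr2c across arrays ran close to that of the choroid plexus markers. Their mean over 13 measured genes was 7.71, 5.76 and 5.75 in control arrays 1 to 3 and 8.51, 7.91 and 7.59 in deficient arrays 1 to 3. Both readings were highest in deficient array 1, then in deficient array 2, and lowest in control arrays 2 and 3, with control array 1 and deficient array 3 between. All 13 markers had a mean higher in deficient animals, 12 of them at an unadjusted limma p under 0.05 and 0 after adjustment. Without control array 1, the control with the highest marker mean, 3 of the 13 passed after adjustment (Ttr, Kcne2 and Clic6). In all, 4 of the 13 markers lay below the array median. Ttr, transthyretin, was at 14.49, 10.93 and 10.23 in controls and 14.77, 14.69 and 14.51 in deficient arrays. With the mean of these markers as a covariate the difference of Htr2c was 0.06 ± 0.11 (SE), and without deficient array 1 it was 0.14. The covariate itself was higher in all deficient arrays than in control arrays 2 and 3, so it cannot separate choroid plexus tissue from genotype. With it, 1.95% of all genes had an unadjusted limma p under 0.05, beside 4.71% without it. The part of choroid plexus tissue in the reading of Htr2c was not tested.

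**Figure D3:**
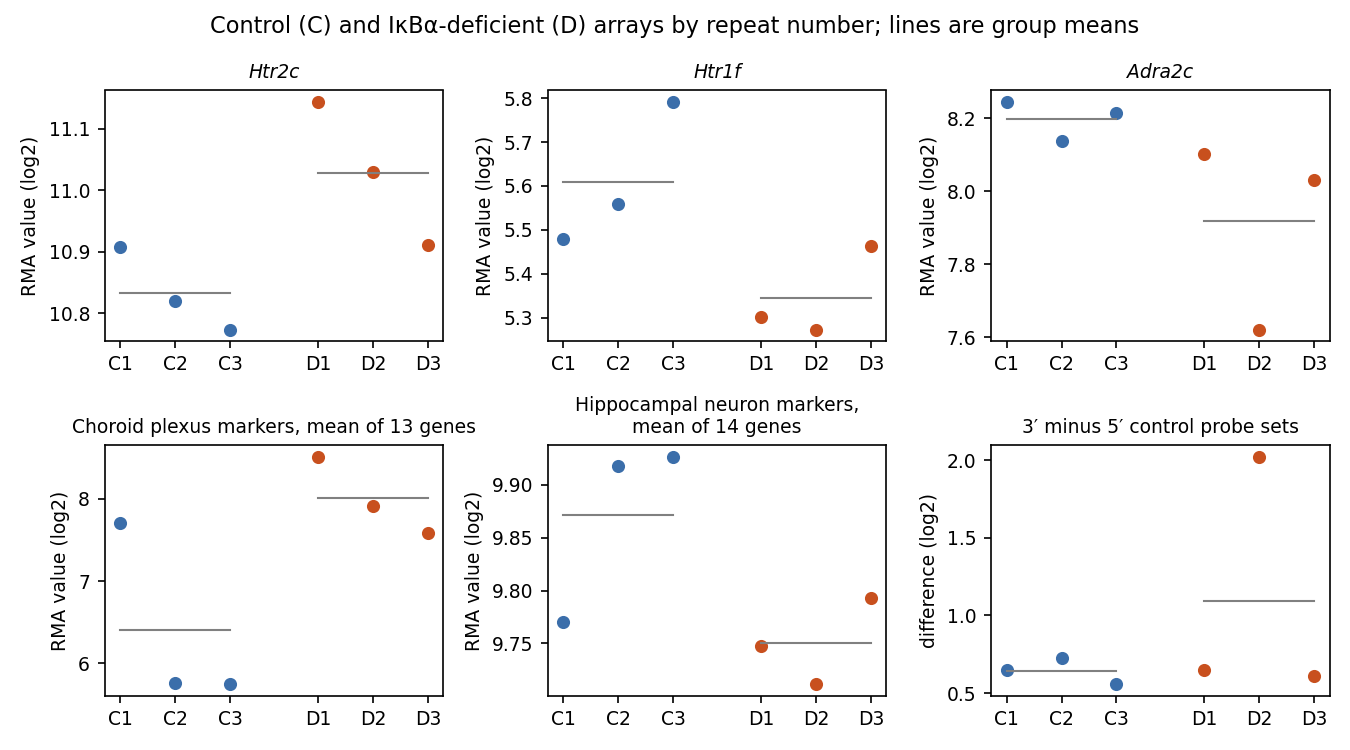
Values on each array (C, control; D, IκBα-deficient; numbers are the repeat numbers) of the 3 receptors whose groups did not overlap, of 2 marker list means, and of the excess of 3′ over 5′ control signals, all in log2 units, with grey lines for group means. Htr2c and the choroid plexus markers are both highest in D1, and both Adra2c and the 3′ to 5′ gap have 1 array far from the others, D2. The vertical axes do not start at 0.

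The other Gq-coupled receptors overlapped between groups. Hrh1, the histamine receptor that antihistamines against allergy block, was at 7.84, 7.33 and 7.31 in controls and 7.75, 7.81 and 7.61 in deficient arrays. Control array 1 lay above all deficient arrays, while control arrays 2 and 3 lay below them, and control array 1 was also the highest control in the choroid plexus markers. The difference of Hrh1 was 0.23 ± 0.14 (SE), it was 0.40 without control array 1 and 0.14 without control array 3, and it turned to -0.15 ± 0.12 with the choroid plexus covariate. Chrm1, the main muscarinic receptor of forebrain pyramidal neurons, was at 10.21, 10.35 and 10.31 in controls and 10.13, 10.13 and 10.36 in deficient arrays, a difference of -0.09 ± 0.08 (SE). Deficient array 3 was the highest of all 6 arrays and the other deficient arrays the lowest. Below the array median, Htr2b differed by 0.13, Chrm3 by -0.07 and Adra1b by -0.02, the last with the widest spread among controls (SD 0.37, n = 3).

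In the group that couples to Gi, 8 of 12 receptors were lower on average in deficient animals and 4 higher, and 0 passed. Htr1f, a serotonin receptor that several triptan drugs bind, was at 5.48, 5.56 and 5.79 in controls and 5.30, 5.27 and 5.46 in deficient arrays, all below the array median. All 3 deficient arrays were below all controls, although deficient array 3 lay just under control array 1, and with quantile normalization repeated these groups overlapped too. The difference was -0.26 ± 0.10 (SE), which is 1.20-fold lower (limma adjusted p = 0.963). The second probe set of Htr1f, 1440422_at, is dimmer and also had separate groups, with a difference of -0.17. Left without control array 3, the difference of Htr1f was -0.17, and with the choroid plexus covariate it was -0.09 ± 0.13 (SE). Markers of hippocampal pyramidal and granule neurons were lower on average too, with 11 of 14 lower in deficient animals, list means of 9.77 to 9.93 in controls and 9.71 to 9.79 in deficient arrays, and 0 of 14 passing. The part of neuron content in the reading of Htr1f was not tested.

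Adra2c, an α2-adrenergic receptor that restrains transmitter release, was at 8.25, 8.14 and 8.21 in controls and 8.10, 7.62 and 8.03 in deficient arrays. The separation from controls was narrow for deficient arrays 1 and 3, and deficient array 2, the array with the wide 3′ to 5′ gap, lay far below. The difference was -0.28 ± 0.12 (SE), which is 1.21-fold lower (limma adjusted p = 0.963). It was -0.13 ± 0.06 without deficient array 2. Another probe set of Adra2c that was above the array median, 1435296_at, gave 7.92, 7.89 and 7.96 in controls and 7.73, 8.00 and 7.82 in deficient arrays, with deficient array 2 as the highest. The low value on deficient array 2 was thus not shared between these probe sets of 1 gene, and the mean of its 4 probe sets differed by -0.11.

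The remaining Gi-coupled receptors overlapped between groups. Htr1a, the serotonin receptor that hyperpolarises pyramidal neurons, was at 8.61, 8.58 and 8.71 in controls and 8.60, 8.25 and 8.53 in deficient arrays, with deficient array 2 lowest again. The difference of Htr1a was -0.17 ± 0.10 (SE), and -0.07 without deficient array 2. Its terminal counterpart Htr1b, which restrains release, was at 7.60, 7.67 and 7.57 in controls and 7.43, 7.68 and 7.48 in deficient arrays. Hrh3, the histamine receptor that also curbs release, was at 8.56, 8.71 and 8.57 in controls and 8.60, 8.55 and 8.42 in deficient arrays. For Htr1b and Hrh3 the differences were -0.09 each, smaller than the range of a group. Htr5a was at 7.15, 7.13 and 7.16 in controls and 7.11, 7.36 and 7.08 in deficient arrays, with array 2 apart on the high side. Its dim probe set 1422207_at had separate groups in the other direction (-0.20). Htr5b, which was put in no coupling class here, was at 7.54, 7.63 and 7.73 in controls and 7.52, 7.73 and 7.66 in deficient arrays, a difference of 0.002. Below the array median, Drd2 differed by 0.06, Drd3 by 0.14, Drd4 by -0.03, Hrh4 by -0.11, Chrm4 by -0.07 and Htr1d by 0.08.

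Receptors that couple to Gs and raise cyclic AMP were 5, of which 4 were above the array median and 0 passed. Htr4, whose activation enhances excitability of pyramidal neurons, was at 8.36, 8.48 and 8.71 in controls and 8.25, 8.42 and 8.41 in deficient arrays (difference -0.16 ± 0.10, SE). Control arrays 2 and 3 lay above every deficient array, and control array 1 lay above deficient array 1 only. The difference of Htr4 was -0.06 without control array 3. Drd1, the D1 dopamine receptor, was at 7.46, 7.16 and 7.19 in controls and 7.23, 7.50 and 7.33 in deficient arrays, and its other probe set, 1455629_at, which also lay above the median, differed by -0.05 where the brighter differed by 0.08. Without deficient array 2 the brighter differed by 0.005. Markers of the striatum, where Drd1 is abundant, had list means of 7.27 to 7.42 in controls and 7.35 to 7.45 in deficient arrays. Hrh2 was at 6.02, 6.27 and 6.12 in controls and 6.36, 6.31 and 6.22 in deficient arrays, next to the array median, with a difference of 0.16 ± 0.08 (SE) and an overlap between control array 2 and deficient array 3. Htr7 was at 7.84, 7.66 and 7.66 in controls and 7.76, 7.74 and 7.70 in deficient arrays, a difference of 0.01 ± 0.07 (SE), and Htr6, below the median, differed by 0.09.

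The ion channels numbered 16, with 12 lower and 4 higher on average and 0 passing. Htr3a, the serotonin-gated channel subunit that marks a class of interneurons, was at 7.98, 8.24 and 8.15 in controls and 7.83, 8.02 and 7.94 in deficient arrays. Its groups overlapped only through control array 1, which lay between deficient arrays 2 and 3. The difference was -0.20 ± 0.09 (SE), with a 95% interval from -0.40 to 0.01 and an adjusted p of 0.963 (limma). It was -0.01 ± 0.11 with the choroid plexus covariate. Interneuron markers had list means of 10.75 to 10.80 in controls and 10.76 to 10.79 in deficient arrays, a difference of -0.006 between the group means. Htr3b, its partner subunit, lay below the array median and differed by 0.05.

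The nicotinic subunits above the array median gave overlapping groups. Chrna7, which forms the homomeric receptor that α-bungarotoxin binds, was at 10.20, 10.40 and 10.33 in controls and 10.37, 10.49 and 10.33 in deficient arrays, a difference of 0.08 ± 0.08 (SE) with a 95% interval from -0.10 to 0.26. Chrnb2 was at 7.89, 7.89 and 7.94 in controls and 7.75, 7.97 and 7.92 in deficient arrays. Chrna4, which joins Chrnb2 in the high-affinity nicotine receptor of the brain, was at 7.21, 6.92 and 6.97 in controls and 6.91, 7.04 and 7.11 in deficient arrays. Differences were -0.03 ± 0.07 for Chrnb2 and -0.01 ± 0.09 for Chrna4 (SE), and the groups overlapped for both. Chrna5, an accessory subunit, was at 6.29, 6.29 and 6.57 in controls and 6.38, 6.19 and 6.39 in deficient arrays, and Chrnd was at 6.37, 6.36 and 6.36 against 6.42, 6.23 and 6.41.

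A further 9 nicotinic subunits lay below the array median, at means of 4.16 to 5.46. They comprised the ganglionic and habenular subunits Chrna3 and Chrnb4, the subunits Chrna6 and Chrnb3 of midbrain dopamine neurons, the interneuron subunit Chrna2, the cochlear subunit Chrna9 and the muscle subunits Chrna1, Chrnb1 and Chrng. Their differences ran from -0.15 (Chrnb3) to 0.16 (Chrna9), 7 below 0 and 2 above. A dimmer probe set of Chrna6, 1450426_at, had separate groups with a difference of -0.27, where the one used differed by -0.03. The list means of thalamus and habenula markers were 7.45 to 7.54 in controls and 7.51 to 7.61 in deficient arrays.

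Extreme values came most often from the same array in the receptors and in all genes. IκBα-deficient array 2 held the highest or the lowest of the 6 values for 20 of 40 receptors (50%), beside 50.5% of all genes. Control array 1 did so for 11 receptors, control array 2 for 9, control array 3 for 17, deficient array 1 for 12 and deficient array 3 for 11. A gene had more than 1 probe set in 22 of the 40 cases, and in 12 of these at least 1 other probe set differed in the opposite direction to the one used, among them Htr2c, Htr5a, Htr7, Drd1, Chrna4, Chrna7 and Chrnb2.

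Because NF-κB acts on promoters, the 250 bases before the RefSeq start of each receptor gene (GRCm38.p6) were searched for the 10-letter κB consensus on both strands, the core TGACG of the cAMP response element (or CGTCA) and the GC box GGGCGG (or CCGCCC). Windows were found for 31 of the 40 genes, 40 windows in all. The κB consensus was present in 5% of the receptor windows and 7.25% of all 32851 windows, in 2 genes, Adra2c and Htr3b. The cAMP element core was present in 10% against 17.8%, and the GC box in 47.5% against 32.7%, with a median GC content of 59.8% in receptor windows and 52.4% in all. Counted by gene, the cAMP core was in 4 and the GC box in 16 of the 31. Windows of the same gene can overlap, as for Hrh1 and Hrh2, so some bases were counted more than once. The windows of the 3 receptors whose groups did not overlap are shown, 5′ to 3′ in the direction of the gene, with matches in capitals. They lie at chrX:146962263-146962512 (plus strand), chr16:65105785-65106034 (minus strand) and chr5:35278316-35278565 (plus strand).
Htr2c: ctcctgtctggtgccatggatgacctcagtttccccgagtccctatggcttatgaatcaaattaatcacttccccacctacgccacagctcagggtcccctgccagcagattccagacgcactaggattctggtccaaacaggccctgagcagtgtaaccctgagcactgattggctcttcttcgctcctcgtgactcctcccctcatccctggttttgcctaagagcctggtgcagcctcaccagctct
Htr1f: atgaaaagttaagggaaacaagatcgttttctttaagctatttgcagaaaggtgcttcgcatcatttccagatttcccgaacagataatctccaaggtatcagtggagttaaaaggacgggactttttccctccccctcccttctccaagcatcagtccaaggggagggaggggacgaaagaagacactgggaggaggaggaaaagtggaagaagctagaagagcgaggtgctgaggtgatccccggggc
Adra2c: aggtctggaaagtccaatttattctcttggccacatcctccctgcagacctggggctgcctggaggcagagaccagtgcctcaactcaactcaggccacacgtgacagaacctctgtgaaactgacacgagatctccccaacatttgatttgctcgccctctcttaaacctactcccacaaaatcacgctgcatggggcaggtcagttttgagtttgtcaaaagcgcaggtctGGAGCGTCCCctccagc
The capitals in Adra2c mark its κB match, which begins 17 bases before the start. The lower value of Adra2c in deficient animals did not pass, and its relation to the match was not tested. Htr2c and Htr1f held none of the 3 motifs in this window, which says nothing of NF-κB at other positions. A match of letters is a description and not a bound site.

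Genes that make, carry and break down the transmitters were compared next. Of 22 measured genes of monoamine and histamine handling, 0 passed in either direction (8 higher, 14 lower, median difference -0.04). Slc6a2, the noradrenaline transporter, was at 6.06, 6.40 and 6.12 in controls and 6.41, 6.67 and 6.41 in deficient arrays, all deficient arrays above all controls. Its difference was 0.30 ± 0.11 (SE), but the mean of its 4 probe sets differed by 0.07. The serotonin-synthesising enzyme Tph2 differed by -0.23, tyrosine hydroxylase (Th) by -0.12 and the serotonin transporter Slc6a4 by -0.08, all 3 below the array median. Like Slc6a2, these 3 genes are transcribed in neurons whose cell bodies lie outside the hippocampus.

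Of 7 measured genes of acetylcholine handling, 5 were higher and 2 lower, and 0 passed (median difference 0.14). In this list 4 of the 7 lay below the array median. Bche, butyrylcholinesterase, which breaks down acetylcholine outside synapses and is made by glia, was at 6.36, 6.42 and 6.40 in controls and 6.85, 7.23 and 6.77 in deficient arrays. All deficient arrays lay well above the narrow range of the controls, with deficient array 2 highest. The difference was 0.56 ± 0.12 (SE), or 1.48-fold higher, with an adjusted p of 0.873 (limma), and it was 0.42 ± 0.06 without deficient array 2. With the choroid plexus covariate it was 0.60 ± 0.19 (SE), and the mean of its 3 probe sets differed by 0.23. Markers of the meninges were also higher in deficient array 2, with list means of 6.65 to 7.16 in controls, 8.08 in that array and 7.08 and 7.11 in deficient arrays 1 and 3, all 11 genes higher on average and 0 passing. Their part in the reading of Bche was not tested. Chat, which makes acetylcholine, differed by 0.15 and Slc18a3, which loads it into vesicles, by 0.14, both below the array median. Prima1, which anchors acetylcholinesterase, differed by 0.14. These values shrank to 0.07 for Chat without control array 3, to 0.02 for Slc18a3 without deficient array 1 and to 0.08 for Prima1 without control array 2. With the choroid plexus covariate they turned to -0.05 for Chat, -0.05 for Slc18a3 and -0.12 for Prima1.

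**Figure D4:**
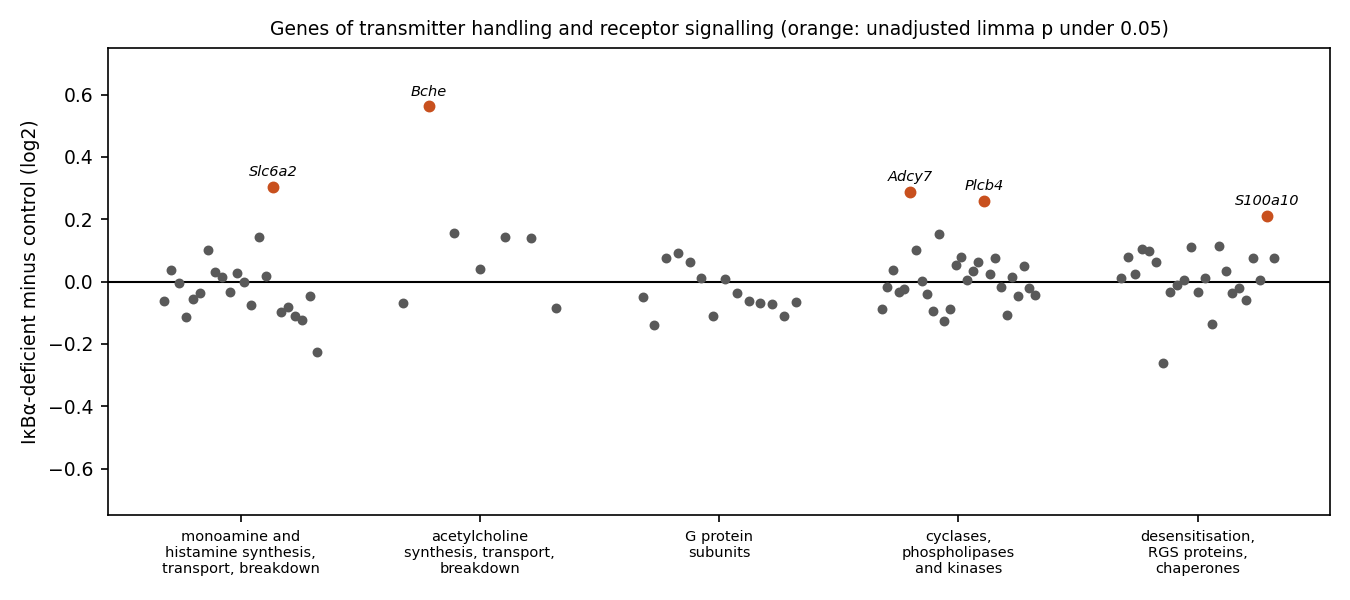
Difference between IκBα-deficient and control arrays (log2, vertical axis) for 94 genes of transmitter handling and receptor signalling, 1 point per gene in 5 lists. Named genes in orange had an unadjusted limma p under 0.05, all 5 above 0, and none passed after adjustment.

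The signalling genes beyond the receptors gave 0 calls in 3 lists. Of 14 G protein subunits 9 were lower and 5 higher (median -0.06), with Gna14 at -0.14, Gnai2 at 0.09, Gnai1 at 0.08 and Gnb1 at -0.07. Of 28 cyclases, phospholipases, kinases, phosphodiesterases and potassium channels 15 were higher and 13 lower (median 0.002). Adcy7, a cyclase found mostly in microglia and immune cells, was at 6.61, 6.40 and 6.40 in controls and 6.67, 6.99 and 6.60 in deficient arrays, and Plcb4 at 9.44, 9.34 and 9.20 against 9.69, 9.70 and 9.38. In both genes control array 1 reached into the range of the deficient arrays. The phosphodiesterases Pde10a and Pde1b differed by 0.15 and -0.13.

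Of 23 genes of receptor desensitisation, RGS proteins and nicotinic chaperones 15 were higher and 8 lower (median 0.01). S100a10, also called p11, an adaptor that brings Htr1b and Htr4 to the cell surface, was at 9.37, 9.45 and 9.50 in controls and 9.58, 9.64 and 9.72 in deficient arrays. All deficient arrays were above all controls, by 0.21 ± 0.07 (SE) on average or 1.16-fold, with an adjusted p of 0.963 (limma). Its receptor partners Htr1b and Htr4 were lower by 0.09 and 0.16 on average in the same animals and did not pass. Ly6e differed by -0.26 with deficient array 2 lowest at 10.69, and by -0.05 without that array. Rgs14 differed by -0.14, or -0.06 without deficient array 2, and Lypd6b by 0.11. Over the 94 genes of all 5 lists 5 had an unadjusted limma p under 0.05, or 5.32%, beside 4.71% of all genes, and the groups did not overlap for 9, or 9.57%, beside 9.76%.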

How the data were processed

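Total RNA from 6 hippocampi was measured on Affymetrix arrays. The deposited values are on the log2 scale and were made by the authors with RMA, per the submitters' processing notes. Neither its version nor a build is given in the sources used here. RMA gives relative levels, and its quantile step hides a change shared by most genes. Arrays have no read depth, and their number limits the precision.

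Of 45101 probe sets, 64 controls were left out, and 34945 had 1 symbol in GEO's (possibly old) platform annotation. All 40 receptors matched RefSeq by Entrez identifier. Genes (highest-mean probe set) were compared by a two-sided linear model with genotype as sole term (lmFit and eBayes of limma 3.58.1, under R 4.3.3), adjusted by Benjamini-Hochberg over 18193 genes with a threshold of 0.05. Errors are SD or the moderated SE. Figures used matplotlib 3.10.9. The fit was tested on simulated data under both of a pair of noise models. It met the recovery asked for, set at differences of 1 log2 unit, with the moderated SD of each gene (99.1% recovered). That model was adopted after the first, with raw SDs shuffled between genes, had narrowly missed it (88.3%). At differences of 0.5 the same models gave 78.3% and 46.8%, and at 0.25 they gave 4.49% and 1.91%. Each simulated set held many changed genes, which eases the Benjamini-Hochberg threshold, whereas the arrays themselves gave 0 calls over all genes. Nfkbia, with a difference of -1.40, was not called here, so these recovery shares do not carry over to the real data. The largest receptor difference was -0.28, so 0 calls among receptors do not show that differences of that size are absent. Coupling classes were assigned after values were seen, and members and lists were chosen with earlier results of these data known.

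The rule for genes described took receptors above the array median, with separate groups or with an unadjusted p under 0.05, the 4 pathway genes of smallest p per list, and Nfkbia. Other receptors are given by difference or range. Neocortex marker means were 8.98 to 9.36 in controls and 9.14 to 9.26 in deficient arrays, and astrocyte marker means 11.66 to 11.69 and 11.71 to 11.77. The astrocyte list was the only marker list whose means did not overlap between groups. Of its 8 genes 4 were higher and 4 lower, the largest difference being 0.45. Groups did not overlap for 5 of them (2 higher, 3 lower), or 62.5%, beside 9.76% of all genes, and 0 passed. The part of astrocytes in the receptor readings was not tested. Alternatives are listed with their effects in the closing section.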

Additional observations from a re-analysis of the deposited data

How the results depend on the processing

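The count of receptors and of pathway genes called stayed at 0 under every alternative run: the repeat number as a block, leaving out each array, dim genes left out, other probe set choices, all probe sets tested, median centring, repeated quantile normalization, a trended robust fit and the choroid plexus covariate. Over all genes the count was 0 to 5 with 1 array left out (5 without control array 1, of which 3 are choroid plexus markers, and 1 without IκBα-deficient array 3), 4 with all probe sets tested (all of Nfkbia), and 1, Nfkbia, with dim genes left out, the mean of all probe sets, median centring or the trended robust fit. Receptors at an unadjusted limma p under 0.05 numbered 0 to 4 of 40 with 1 array left out, beside 3.29% to 7.02% of all genes. They were 4 without control array 1 (4.42% of all genes) or IκBα-deficient array 2 (5.18%). Without IκBα-deficient array 1 there was 1 (4.18%), and without control array 3 there were 0 (3.29%). The trended robust fit gave 4 (4.52% of all genes) and the choroid plexus covariate 1 (1.95%). Samples with the same repeat number deviated together with correlations of 0.0611, 0.238 and 0.195, and 5 of 6 arrays correlated best with their own number. The series text speaks of 3 pairs with littermates, but no label ties a repeat number to a litter and 1 of the 3 correlations was near 0, so the fit without the block was kept as the main one. With the replicate block 0 receptors were called and 4 of 40 had an unadjusted limma p under 0.05, beside 5.82% of all genes. Of the 20 receptors described in full, 9 kept their direction in every alternative that held them, Htr2c, Htr1f and Adra2c among them, and of 20 pathway genes 15. Leaving out dim genes dropped Htr1f and Hrh2, and pathway genes such as Th, Tph2, Slc6a4 and Gna14. Their direction was not tried in that alternative. Receptors whose groups did not overlap numbered 1 of 40 with quantile normalization repeated, beside 9.83% of all genes. With dim genes left out they were 2 of the 16 receptors kept, beside 10.7%. The mean of all probe sets gave 5 of 40, beside 9.07%. With 1 array left out they were 3 to 10 of 40, where the share of all genes was also higher (17.4% to 23.5%). Leaving out 1 array shrank the difference by over 1.5 times, or turned it, for 18 of the 20 receptors (all but Htr2c and Htr3a) and 13 of the 20 pathway genes, most often IκBα-deficient array 2 (6 receptors and 6 pathway genes). With 1 array left out, differences spanned 0 for Chrna4 (-0.071 to 0.073), Chrna5 (-0.11 to 0.028), Chrnb2 (-0.069 to 0.038), Chrnd (-0.043 to 0.054), Htr5a (-0.052 to 0.085), Htr5b (-0.047 to 0.062) and Htr7 (-0.020 to 0.068). With the mean of all probe sets, Chrnb2 turned to 0.045, Chrna4 to 0.064, Htr7 to -0.037, Htr5a to -0.080, Gnb1 to 0.016 and Pde10a to -0.025. Median centring turned Htr5b to -0.0014. With the choroid plexus covariate, Drd1 turned to -0.085, Hrh1 to -0.15, Chrm1 to 0.048, Chrnb2 to 0.043, Chrna5 to 0.027, Htr4 to 0.045, Htr7 to -0.13, Chat to -0.050, Prima1 to -0.12 and Slc18a3 to -0.046. The cause was not tested. That covariate rests on 6 arrays, runs largely with genotype and widens the errors.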
